A study of Homo sapiens with 18 samples.

Results

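Aldehyde dehydrogenases are described here in HCC4006 cells through 10 genes: ALDH1A1, ALDH1A2, ALDH1A3, ALDH1B1, ALDH2, ALDH3A1, ALDH3A2, ALDH3B1, ALDH6A1 and ALDH7A1. The list was given by name, and the members were taken as the array features that name those genes. Each of the 10 genes had 1 feature, out of 22465 genes that a feature names on its own and 70523 features in the table. HCC4006 cells come from a human lung adenocarcinoma and carry an activating EGFR mutation. They were reverse transfected with 5 nM of siRNA against Notch1 (N1), siRNA against Notch3 (N3) or a non-targeting control (NTC), and were then given DMSO as vehicle or 0.1 µM erlotinib, a tyrosine kinase inhibitor (TKI) of EGFR. The comparisons ask how the TKI and the loss of either Notch receptor alter transcripts in cells that persist on the drug. The groups were NTC in DMSO, N1 in DMSO, N3 in DMSO, NTC in erlotinib, N1 in erlotinib and N3 in erlotinib, with 3 arrays in each and 18 in all. Every group is the same cell line, and the time on drug is 5 days in the sample labels and 6 days in the paper. The arrays are numbered 1 to 3 in each group except N3 in erlotinib, where they are numbered 4 to 6, so a separate handling of that group and its treatment cannot be told apart.

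Aldehyde dehydrogenases oxidize aldehydes to carboxylic acids with NAD or NADP as the electron acceptor. The ALDH1A enzymes make retinoic acid from retinaldehyde, the ALDH3 enzymes clear fatty, aromatic and lipid-peroxidation aldehydes, and others work inside the breakdown of amino acids or ethanol. A fluorescent assay of their summed activity is widely used to sort stem-like cells from tumors, and ALDH1A1 and ALDH1A3 are the isoforms most often credited with that activity.

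Values are log2 levels after robust multi-array average (RMA), and a difference of log2 levels is given as a log2 fold change. Array medians ran from 4.84 to 5.01, and pairs of arrays correlated at 0.992 to 0.997 in the same group and at 0.979 to 0.997 in different groups. NOTCH3, the target of N3, fell by 0.57 on the log2 scale with N3 in DMSO (adjusted p = 5.75e-06 from limma) and in erlotinib (adjusted p = 4.11e-06). NOTCH1, the target of N1, fell by 0.30 with N1 in DMSO (adjusted p = 0.000291), but in erlotinib its log2 fold change was -0.08 (adjusted p = 0.214), so these arrays do not show the N1 target lowered in erlotinib. These values are RNA. For protein, the paper reports from Western blots that both knockdowns were specific and looked complete. With N1 in erlotinib NOTCH3 was 0.25 higher than with NTC (adjusted p = 0.00818 from limma). In DMSO the log2 fold change of NOTCH3 with N1 was -0.11 (adjusted p = 0.248). All 6 epithelial markers and all 5 lung lineage markers lay above the array median on all 18 arrays, while PTPRC, CD3E and MS4A1 of the immune list, PECAM1 of the endothelial list and DCN of the fibroblast list did so on 0 of 18, and the rest of those lists on 9 to 18. With erlotinib in NTC cells 3 of 6 epithelial markers tested were lower (KRT19 by a log2 fold change of -0.95), 2 of 5 lung lineage markers were higher (NAPSA, 1.41), 2 of 2 immune markers were lower (CD68, -0.92), 0 of 2 endothelial markers were called and 1 of 3 fibroblast markers was higher (COL1A2, 1.01). Their part in the results was not tested.

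The noise filter kept features that exceeded their array's median on 3 or more arrays, which left 16336 genes to test. The same linear model in limma gave every comparison, and a gene was called where its p, adjusted over all 16336 genes, was under 0.05. Of the members, 8 passed this filter, each on all 18 arrays, and ALDH1A1 and ALDH1A2 lay above the median on 0 of 18. The p values measure only the spread between arrays, which may be technical, since nothing given here says that the arrays of a group are separate cultures. With 3 arrays against 3, an exact permutation test of a single gene cannot go below 0.1 (two-sided), and the number of arrays limits the precision.

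Promoters are shown for 3 members because the levels of these genes carry the main patterns below: ALDH3A2 had the largest rise with erlotinib in NTC cells, ALDH1A3 moved in opposite directions under the 2 Notch siRNAs, and ALDH7A1 was lower with N1 in both media. The sequences are from RefSeq (GRCh38.p14), 250 bases before to 50 bases after a start site, and 8 of the 10 members matched a promoter there, with 11 promoters among them. ALDH2 and ALDH3A1 had no promoter there, so neither was searched for any core. Capitals mark the letters GCGTG, the core bound by the aryl hydrocarbon receptor (AHR), or TGGGAA, the core bound by the Notch effector CSL, on either strand.
ALDH3A2, second start site, chr17:19648501-19648800, plus strand: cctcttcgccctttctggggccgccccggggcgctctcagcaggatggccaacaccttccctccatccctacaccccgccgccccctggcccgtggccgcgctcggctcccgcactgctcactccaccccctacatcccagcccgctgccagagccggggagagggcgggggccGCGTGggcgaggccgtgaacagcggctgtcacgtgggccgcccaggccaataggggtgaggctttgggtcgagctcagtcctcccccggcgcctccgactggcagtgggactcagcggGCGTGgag
ALDH1A3, chr15:100879581-100879880, plus strand: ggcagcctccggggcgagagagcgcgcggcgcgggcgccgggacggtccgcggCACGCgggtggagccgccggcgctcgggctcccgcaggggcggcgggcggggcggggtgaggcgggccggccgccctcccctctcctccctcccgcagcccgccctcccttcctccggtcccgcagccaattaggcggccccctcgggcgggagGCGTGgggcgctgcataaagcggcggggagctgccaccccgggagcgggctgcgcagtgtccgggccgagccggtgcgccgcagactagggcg
ALDH7A1, chr5:126595170-126595469, minus strand: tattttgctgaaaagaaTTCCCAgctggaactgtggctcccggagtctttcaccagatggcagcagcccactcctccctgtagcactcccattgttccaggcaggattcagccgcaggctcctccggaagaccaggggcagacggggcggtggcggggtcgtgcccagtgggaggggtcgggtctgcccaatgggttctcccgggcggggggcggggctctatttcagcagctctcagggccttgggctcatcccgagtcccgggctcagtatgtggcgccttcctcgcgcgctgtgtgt

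The promoter at the second start site of ALDH3A2 held GCGTG at -76 and at +43 from that site, both on the strand of the gene, and the promoter at its first start site held 0 of the cores searched. The ALDH1A3 promoter held it at -197 on the opposite strand and at -43 on its own. ALDH7A1 held TGGGAA at -233 on the opposite strand. GCGTG occurred in 3 of the 11 member promoters, that of ALDH1A2 being the other, and in 36.5% of all 35116 promoters in the table. TGGGAA occurred in 1 of 11 and in 24% of all promoters. CTTTGA, the core bound by TCF factors with beta-catenin, occurred in 1 of 11, that of ALDH1A1, and in 12.9% of all promoters, and TGACNNNGC, an antioxidant response core, in 0 of 11 and in 13.3%. These short cores overlap in no promoter printed here and are a description of the letters only.

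In NTC cells erlotinib raised ALDH3A2, ALDH3B1 and ALDH2 and lowered ALDH1B1, ALDH3A1 and ALDH6A1, while ALDH1A3 and ALDH7A1 were not called. The call of ALDH2 was near the threshold (adjusted p = 0.0446 from limma). So 3 of the 8 tested members were higher, against 24.6% of all genes tested, and 3 were lower, against 25.4%, shares near those of the array as a whole. The median log2 fold change of the 8 was -0.015, and that of all genes was -0.023. The stricter rule of the Methods asks for a fold change of at least 2 with p under 5e-04 before adjustment. By that rule 0 members were called with erlotinib under any siRNA. It called 3.65% of genes with erlotinib in NTC cells, 3.2% in N1 cells and 4.16% in N3 cells. Less RNA per cell and fewer cells that carry a transcript cannot be told apart in these bulk samples.

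**Figure D1:**
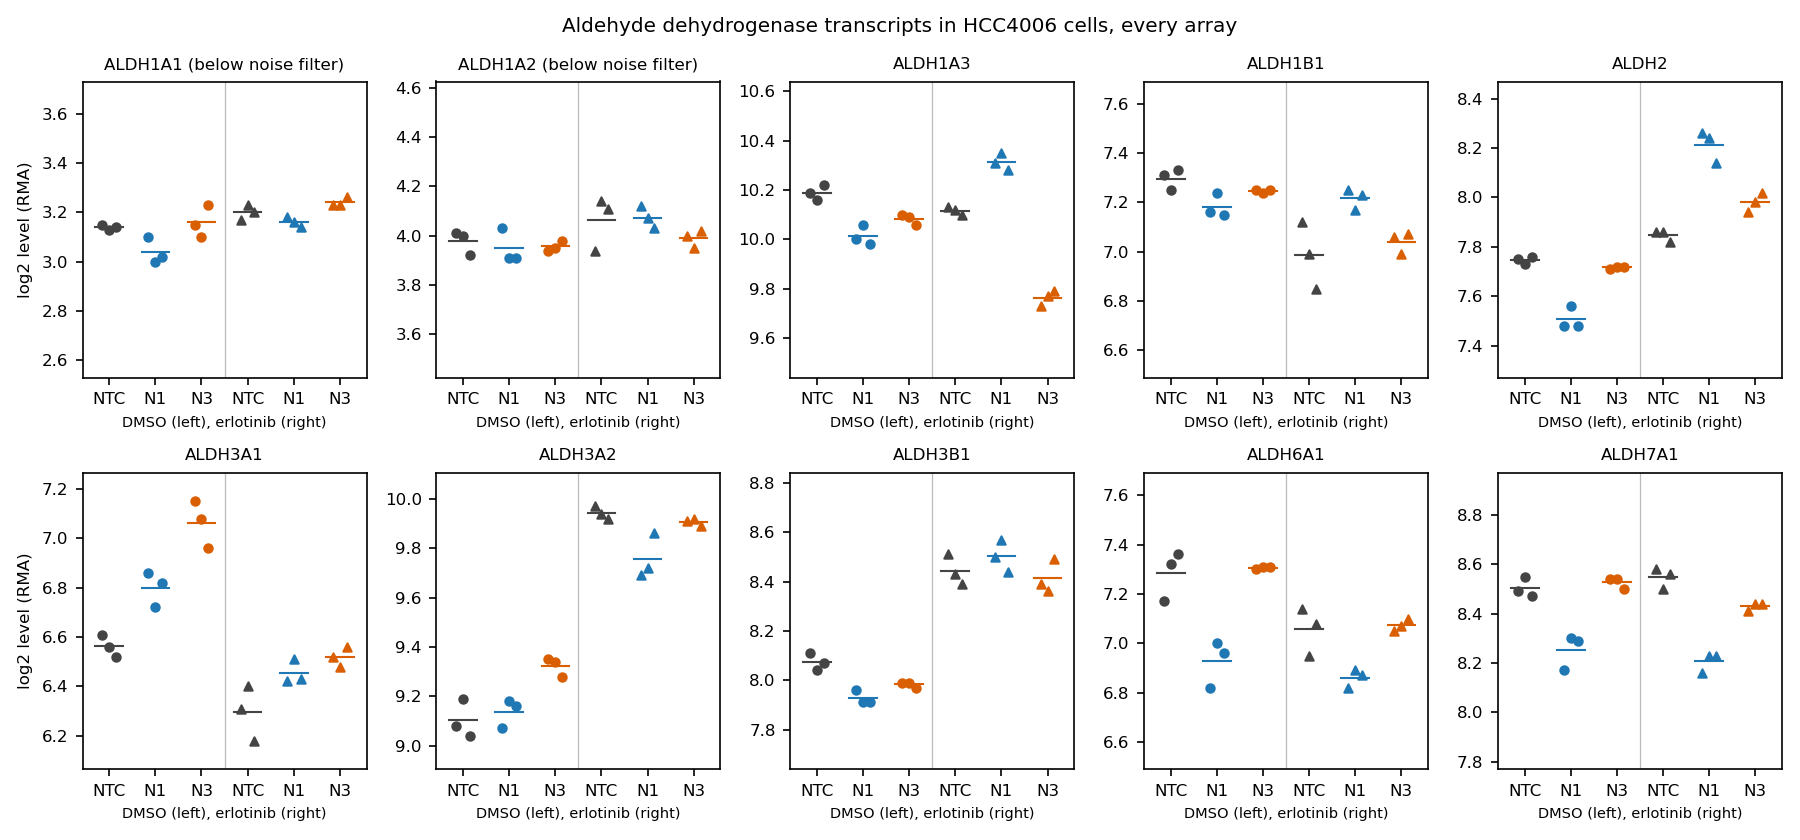
Log2 level (RMA) of each of the 10 genes on every array, with DMSO on the left and erlotinib on the right of each panel; points are arrays, colors are siRNAs, lines are means of 3 arrays and each panel has its own range. ALDH3A2 and ALDH3B1 are higher on all 9 erlotinib arrays than on all 9 DMSO arrays, and ALDH1A3 in erlotinib is highest with N1 and lowest with N3.

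Of the retinaldehyde oxidizing enzymes, ALDH1A1 and ALDH1A2 stayed at the low end of the array. ALDH1A1 ran from 3.00 to 3.26 over the 18 arrays and ALDH1A2 from 3.91 to 4.14. Their group means spanned 0.20 and 0.12 on the log2 scale. With no filter, and 22465 genes tested, 1 comparison reached the threshold for either gene, ALDH1A1 with erlotinib in N1 cells, with a log2 fold change of 0.12 (adjusted p = 0.0255 from limma). Both lay below the median of every array, so no change is read from them.

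ALDH1A3, the third retinaldehyde dehydrogenase, was well above the array median and was called with erlotinib in opposite directions under N1 and N3. Its log2 levels in DMSO were 10.19, 10.16 and 10.22 with NTC, 10.00, 10.06 and 9.98 with N1, and 10.10, 10.09 and 10.06 with N3. In erlotinib they were 10.13, 10.12 and 10.10 with NTC, 10.31, 10.35 and 10.28 with N1, and 9.73, 9.77 and 9.79 with N3. The N1 arrays in erlotinib were the highest of all 18 and the N3 arrays in erlotinib the lowest, with no overlap with any other group, whereas N3 in DMSO overlapped with both of its neighbors in the order of levels, NTC in erlotinib and N1 in DMSO.

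With erlotinib ALDH1A3 rose by 0.30 in N1 cells (adjusted p = 2.03e-06 from limma, standard error 0.04) and fell by 0.32 in N3 cells (standard error 0.04, adjusted p = 7.75e-07). In NTC cells its log2 fold change was -0.07, with a 95% interval from -0.15 to 0.00 and an adjusted p of 0.105. The effect of erlotinib was 0.37 higher with N1 than with NTC (adjusted p = 0.00035 from limma, standard error 0.05) and 0.25 lower with N3 than with NTC on the log2 scale (log2 difference -0.25, standard error 0.05, adjusted p = 0.00649), and these tests share the NTC arrays. Only 2.22% of genes tested were called with erlotinib in opposite directions under different siRNAs, and ALDH1A3 was the 1 member among them. Against NTC, N1 lowered it in DMSO (log2 fold change -0.18, adjusted p = 0.00371) and raised it in erlotinib (0.20, adjusted p = 0.000938). N3 lowered it in erlotinib (-0.35, adjusted p = 2.58e-06), and in DMSO the value was -0.11 (adjusted p = 0.066). The call with N1 in DMSO was lost when only the compared arrays were fitted (adjusted p = 0.104).

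The 2 mitochondrial enzymes of acetaldehyde oxidation, ALDH1B1 and ALDH2, moved in opposite directions with erlotinib in NTC cells, where the rise of ALDH2 was small and near the threshold. ALDH2, the main enzyme that clears acetaldehyde formed from ethanol, read 7.75, 7.73 and 7.76 with NTC, 7.48, 7.56 and 7.48 with N1, and 7.71, 7.72 and 7.72 with N3 in DMSO. In erlotinib it read 7.86, 7.86 and 7.82 with NTC, 8.26, 8.24 and 8.14 with N1, and 7.94, 7.98 and 8.02 with N3. No group overlapped with its neighbors in the order of levels, and N1 was the lowest group in DMSO and the highest in erlotinib.

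ALDH2 rose by 0.71 with erlotinib in N1 cells (1.63-fold, standard error 0.04, adjusted p = 1.36e-10 from limma), by 0.26 in N3 cells (adjusted p = 2.12e-05) and by 0.10 in NTC cells (adjusted p = 0.0446). The call in NTC cells was lost when any 1 of the 6 arrays of that comparison was left out (adjusted p from 0.0535 to 0.114) and with no noise filter (adjusted p = 0.0632). The effect was 0.61 higher with N1 than with NTC (standard error 0.06, adjusted p = 6.31e-06), and with N3 the difference from NTC was 0.16 (95% interval 0.05 to 0.28, adjusted p = 0.108). N1 against NTC lowered ALDH2 in DMSO (-0.24, adjusted p = 0.000775) and raised it in erlotinib (0.37, adjusted p = 6.47e-06). This reversal, shared with ALDH1A3, was found for 2 of the 8 members and 0.435% of genes tested. N3 against NTC gave 0.13 in erlotinib (adjusted p = 0.0252), a call lost when any of 5 of its 6 arrays was left out, those being NTC arrays 1, 2 and 3 and N3 arrays 5 and 6 (adjusted p from 0.0516 to 0.0935), and -0.03 in DMSO (adjusted p = 0.659).

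ALDH1B1, which oxidizes acetaldehyde and retinaldehyde in mitochondria, had the largest fall of any member with erlotinib in NTC cells. Its levels in DMSO were 7.31, 7.25 and 7.33 with NTC, 7.16, 7.24 and 7.15 with N1, and 7.25, 7.24 and 7.25 with N3. In erlotinib they were 7.12, 6.99 and 6.85 with NTC, 7.25, 7.17 and 7.23 with N1, and 7.06, 6.99 and 7.07 with N3. The NTC and N3 arrays in erlotinib lay below all DMSO arrays, while the N1 arrays in erlotinib overlapped with those in DMSO. It fell by 0.31 with erlotinib in NTC cells (adjusted p = 0.000128 from limma, standard error 0.05) and by 0.21 in N3 cells (adjusted p = 0.00392), and in N1 cells the log2 fold change was 0.03 (95% interval -0.08 to 0.15, adjusted p = 0.608). The effect differed by 0.34 between N1 and NTC (standard error 0.08, adjusted p = 0.0101) and by 0.10 between N3 and NTC (adjusted p = 0.549). In erlotinib ALDH1B1 was 0.23 higher with N1 than with NTC (adjusted p = 0.0063), a call lost when only those 6 arrays were fitted (adjusted p = 0.0522).

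The ALDH3 genes held the largest rise with the TKI in NTC cells and the 1 fall that was called under all 3 siRNAs. ALDH3A2 encodes the fatty aldehyde dehydrogenase of the endoplasmic reticulum, which oxidizes long-chain aldehydes from fatty alcohols, ether lipids and sphingolipids and is mutated in Sjögren-Larsson syndrome. It read 9.08, 9.19 and 9.04 with NTC, 9.07, 9.18 and 9.16 with N1, and 9.35, 9.34 and 9.28 with N3 in DMSO. In erlotinib it read 9.97, 9.94 and 9.92 with NTC, 9.69, 9.72 and 9.86 with N1, and 9.91, 9.92 and 9.89 with N3. All erlotinib arrays lay above all DMSO arrays, and NTC and N3 overlapped in erlotinib, as did NTC and N1 in DMSO.

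ALDH3A2 rose by 0.84 with erlotinib in NTC cells (1.79-fold, standard error 0.05, adjusted p = 2.74e-10 from limma), by 0.62 in N1 cells (adjusted p = 1.57e-08) and by 0.58 in N3 cells (adjusted p = 2.66e-08). The effect was smaller than in NTC cells by log2 differences of -0.22 with N1 (adjusted p = 0.0476) and -0.26 with N3 (adjusted p = 0.0399). Both differences were near the threshold: with N1 the call was lost on leaving out any of 9 of the 12 arrays (adjusted p from 0.0595 to 0.123; NTC DMSO arrays 1 and 3, NTC erlotinib arrays 1 to 3, N1 DMSO arrays 2 and 3 and N1 erlotinib arrays 1 and 2). With N3 it was lost for 10 of 12 (adjusted p from 0.063 to 0.0975; NTC DMSO arrays 1 and 3, NTC erlotinib arrays 1 to 3, N3 DMSO arrays 1 and 2 and N3 erlotinib arrays 4 to 6). In DMSO N3 raised ALDH3A2 by 0.22 (adjusted p = 0.00667), and in erlotinib N1 lowered it (-0.19, adjusted p = 0.0132), a call lost without N1 erlotinib array 1 or 2 or NTC erlotinib array 1 (adjusted p from 0.0513 to 0.0732).

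ALDH3B1 acts on medium- and long-chain aldehydes from lipid peroxidation. Its levels in DMSO were 8.11, 8.04 and 8.07 with NTC, 7.96, 7.91 and 7.91 with N1, and 7.99, 7.99 and 7.97 with N3, and in erlotinib 8.51, 8.43 and 8.39 with NTC, 8.5, 8.57 and 8.44 with N1, and 8.39, 8.36 and 8.49 with N3. All 9 erlotinib arrays lay above all 9 DMSO arrays, and the 3 erlotinib groups overlapped. It rose by 0.37 in NTC cells (adjusted p = 2.48e-06 from limma), by 0.58 in N1 cells (adjusted p = 1.21e-08) and by 0.43 in N3 cells (adjusted p = 3.6e-07). The effect was 0.21 larger with N1 than with NTC (adjusted p = 0.0424), a call lost on leaving out any of 8 of the 12 arrays, namely NTC DMSO arrays 1 and 3, NTC erlotinib arrays 2 and 3, N1 DMSO arrays 2 and 3 and N1 erlotinib arrays 1 and 2 (adjusted p from 0.0517 to 0.111). With N3 the difference was 0.06 (adjusted p = 0.702).

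ALDH3A1, an enzyme for aromatic and medium-chain aldehydes that is abundant in the cornea and is a known AHR target, was the 1 member lower with erlotinib under all 3 siRNAs, as were 17.1% of genes tested. Its levels were 6.61, 6.56 and 6.52 with NTC, 6.86, 6.72 and 6.82 with N1, and 7.15, 7.08 and 6.96 with N3 in DMSO. In erlotinib they were 6.31, 6.40 and 6.18 with NTC, 6.42, 6.51 and 6.43 with N1, and 6.52, 6.48 and 6.56 with N3. In DMSO the 3 groups did not overlap and rose in the order NTC, N1, N3, and under each siRNA the erlotinib arrays lay below the DMSO arrays.

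ALDH3A1 fell by 0.27 with erlotinib in NTC cells (adjusted p = 0.0011 from limma, standard error 0.06), by 0.35 in N1 cells (adjusted p = 9.81e-05) and by 0.54 in N3 cells (adjusted p = 5.48e-07). The difference of the effect between N3 and NTC was -0.28 (95% interval -0.45 to -0.10, adjusted p = 0.0651), and it was called without NTC erlotinib array 3 (adjusted p = 0.0241) or without N3 DMSO array 3 (adjusted p = 0.032). It was also called with the noise limit at the 75th percentile (adjusted p = 0.0352) and with quantile normalization (0.0365). In DMSO N3 raised ALDH3A1 by 0.50 (adjusted p = 1.81e-05), the largest change of any member with a Notch siRNA, and N1 raised it by 0.24 (adjusted p = 0.0141, and 0.0576 without N1 DMSO array 3). In erlotinib N3 raised it by 0.22 (adjusted p = 0.0135, and 0.0806 without NTC erlotinib array 3), and with N1 the value was 0.16 (adjusted p = 0.0724, and 0.0273 without NTC erlotinib array 2). It was the 1 member higher with N3 in both media, as were 3.25% of genes tested.

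**Figure D2:**
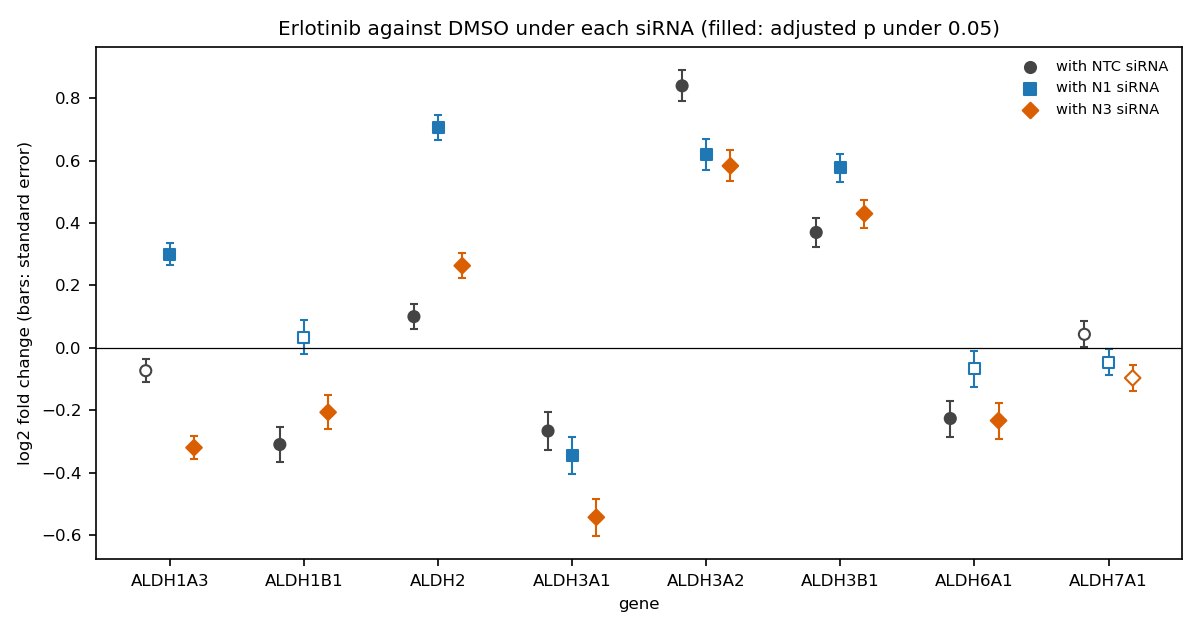
Log2 fold change of erlotinib against DMSO for the 8 tested genes under each siRNA, with bars for the standard error and filled points for an adjusted p under 0.05. ALDH2, ALDH3A2 and ALDH3B1 are above 0 and ALDH3A1 is below 0 under all 3 siRNAs, whereas ALDH1A3 is at 0.30 with N1 and at -0.32 with N3.

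ALDH3A2, ALDH3B1 and ALDH2 were thus higher with erlotinib under all 3 siRNAs, a pattern of 3 of the 8 members and 15.8% of genes tested. For ALDH2 this rests in NTC cells on a call that was lost when any array of that comparison was left out. In N1 cells 4 members were higher with erlotinib, against 31.7% of genes, and 1 was lower, against 23.7%, with a median log2 fold change of 0.167 where that of all genes was 0.08. In N3 cells 3 were higher, against 24.9%, and 4 were lower, against 27.7%, with medians of -0.152 for the members and 0.01 for all genes. The comparison of effects called 4 members with a higher effect with N1 than with NTC, against 8.04% of genes, and 1 with a lower effect, against 6.04%. With N3 in place of N1 it called 0 members with a higher effect, against 1.63%, and 2 with a lower effect, ALDH1A3 and ALDH3A2, against 4.27%.

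The 2 enzymes of amino acid breakdown were lower with N1. ALDH6A1 is the methylmalonate semialdehyde dehydrogenase of mitochondria, which acts late in the breakdown of valine and of pyrimidines. It read 7.17, 7.32 and 7.36 with NTC, 6.82, 7.0 and 6.96 with N1, and 7.30, 7.31 and 7.31 with N3 in DMSO. In erlotinib it read 7.14, 6.95 and 7.08 with NTC, 6.82, 6.89 and 6.87 with N1, and 7.05, 7.07 and 7.10 with N3. The N1 arrays lay below those of the other siRNAs in each medium, and the N3 arrays overlapped with the NTC arrays in each. N1 lowered ALDH6A1 by a log2 fold change of -0.36 in DMSO (adjusted p = 0.000681 from limma, standard error 0.06) and -0.20 in erlotinib (adjusted p = 0.0224). The call in erlotinib was lost without N1 array 1 or without NTC array 1 or 3 of that medium (adjusted p from 0.0789 to 0.109). Erlotinib lowered it in NTC cells (-0.23, adjusted p = 0.00324) and in N3 cells (-0.23, adjusted p = 0.00239), and in N1 cells the value was -0.07 (adjusted p = 0.331). The difference of the effect between N1 and NTC was 0.16 (adjusted p = 0.173).

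ALDH7A1, or antiquitin, oxidizes the semialdehyde of aminoadipate in lysine breakdown and is mutated in pyridoxine-dependent epilepsy. Its levels in DMSO were 8.49, 8.55 and 8.47 with NTC, 8.17, 8.30 and 8.29 with N1, and 8.54, 8.54 and 8.5 with N3. In erlotinib they were 8.58, 8.5 and 8.56 with NTC, 8.16, 8.23 and 8.23 with N1, and 8.41, 8.44 and 8.44 with N3. The N1 arrays of both media lay below all other arrays and overlapped with each other. N1 lowered ALDH7A1 with log2 fold changes of -0.25 in DMSO (adjusted p = 0.0009 from limma, standard error 0.04) and -0.34 in erlotinib (adjusted p = 2.72e-05), and the call in DMSO was lost when only the compared arrays were fitted (adjusted p = 0.0609). In the main fit it was the member with no call for erlotinib under any siRNA. Its log2 fold changes were 0.04 (95% interval -0.05 to 0.13, adjusted p = 0.43) in NTC cells and -0.05 (adjusted p = 0.349) in N1 cells. In N3 cells the value was -0.10 (95% interval -0.19 to -0.01, adjusted p = 0.0642). That value was called with the noise limit at the 75th percentile (adjusted p = 0.0431) and with a mean-variance trend and robust settings (0.0451).

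Being lower with N1 in both media was thus found for ALDH6A1 and ALDH7A1, 2 of 8 members, and for 1.87% of genes tested. In all, N1 lowered 5 members in DMSO, against 6.97% of genes, and raised 1, ALDH3A1, against 7.75%. The fifth of those lowered, beside ALDH1A3, ALDH2, ALDH6A1 and ALDH7A1, was ALDH3B1 (-0.15, adjusted p = 0.04 from limma), a call lost without NTC DMSO array 1 or 3 or N1 DMSO array 2 or 3 (adjusted p from 0.0676 to 0.143). When only the 6 compared arrays were fitted, 2 members were called, ALDH2 and ALDH6A1. With same-numbered arrays of those 6 paired (a replicate block), no call of the main fit was lost. In erlotinib N1 raised 3 members, ALDH1A3, ALDH1B1 and ALDH2, against 11.9%, and lowered 3, ALDH3A2, ALDH6A1 and ALDH7A1, against 9.15%, and 3 of these 6 calls held when only the compared arrays were fitted. The median over members was -0.162 in DMSO, where all genes had -0.04, and 0.108 in erlotinib, where all genes had 0.033.

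Fewer members were called with N3 than with N1 in each medium, and the counts were not tested against each other. With only the compared arrays fitted and left unpaired, the counts in DMSO were equal, at 2 with N1 and 2 with N3. With a replicate block on those arrays, no call with N1 was lost, and with N3 ALDH3A2 was lost (adjusted p = 0.0935 from limma). The share of all genes called in these smaller fits was not counted. In the fit of all arrays in DMSO, N3 raised 2 members, ALDH3A1 and ALDH3A2, against 7.24% of genes, and lowered 0, against 4.8%. In erlotinib it raised 2, ALDH2 and ALDH3A1, against 7.93%, and lowered 1, ALDH1A3, against 10.5%. The medians were -0.003 and -0.007, and those of all genes -0.023 and -0.013.

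**Figure D3:**
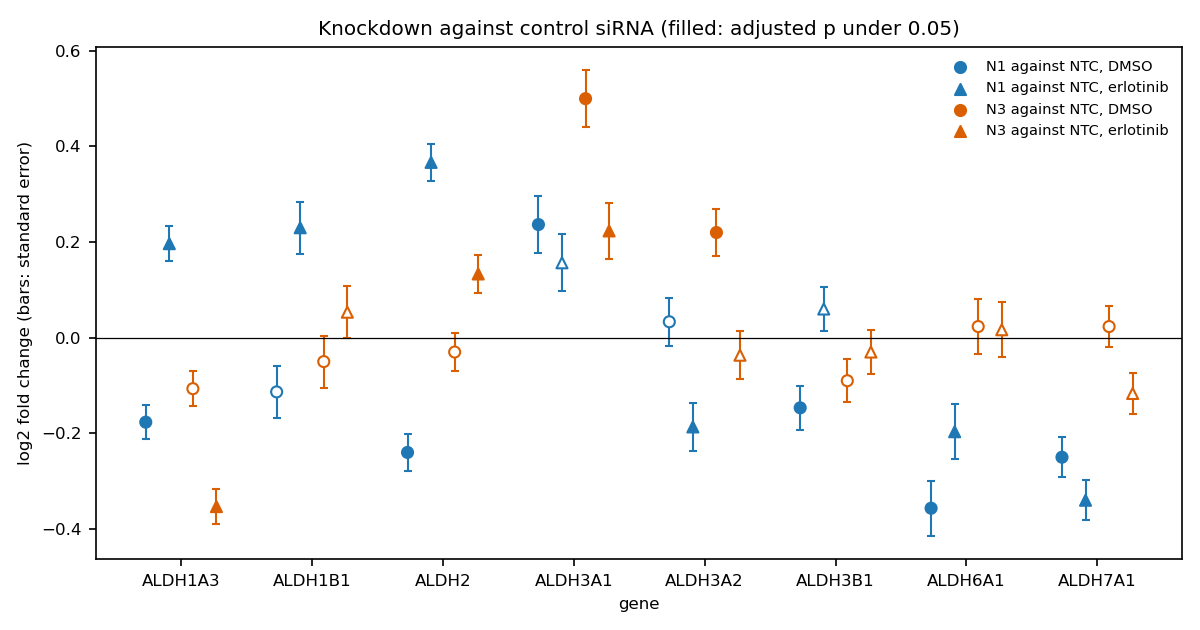
Log2 fold change of N1 (blue) and N3 (orange) against NTC for the 8 tested genes, in DMSO (circles) and in erlotinib (triangles), with bars for the standard error and filled points for an adjusted p under 0.05. ALDH6A1 and ALDH7A1 are below 0 with N1 in both media, ALDH1A3 and ALDH2 change sign between media with N1 with both points filled, and ALDH3A1 is above 0 at all 4 points. ALDH1B1, ALDH3A2 and ALDH3B1 also change sign with N1, but not with both points filled.

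The genes around these enzymes were counted from lists of their pathways, to be read beside the 24.6% of all genes tested that were higher and the 25.4% that were lower with erlotinib in NTC cells. Of the 7 other aldehyde dehydrogenases tested, 1 was higher with erlotinib in NTC cells, ALDH1L2 (0.46), the mitochondrial formyltetrahydrofolate dehydrogenase, and 3 were lower, led by ALDH9A1 (-0.59), which oxidizes aminoaldehydes, and ALDH18A1 (-0.22), which makes the proline precursor pyrroline-5-carboxylate. ALDH1L2, like ALDH1A3 and ALDH2, was lower with N1 in DMSO (-0.36, adjusted p = 0.00366 from limma) and higher with N1 in erlotinib (0.23, adjusted p = 0.035). Of 18 genes of retinoid transport, metabolism and signaling, 2 were higher with erlotinib in NTC cells and 6 were lower, the largest being DHRS9 (-1.70), a retinol dehydrogenase, CRABP2 (-0.92), which carries retinoic acid to its receptor, and RDH11 (-0.78), a retinal reductase. DHRS9, which makes the substrate of the ALDH1A enzymes, was 1.53 higher with N3 in DMSO and fell by 3.23 with erlotinib in N3 cells. Of 9 other oxidases and reductases of aldehydes, 1 was higher and 5 were lower, led by AKR1B10 (-1.11), AOX1 (-0.87) and DCXR (-0.50).

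AHR and its targets were read because ALDH3A1 is among the genes that AHR is known to induce. In NTC cells 5 of the 7 genes tested were higher with erlotinib, against 24.6% of all genes, and 1 was lower, against 25.4%. CYP1A1, the classical AHR target, rose by 2.79, TIPARP, a target that represses AHR, rose by 0.29, and NQO1, a quinone reductase also under NRF2, fell by 0.43, while ALDH3A1 fell as given above. With N1 in DMSO 5 of 7 were higher, against 7.75% of all genes, and with N3 in DMSO 3 of 7 were higher, against 7.24%, with CYP1A1 at 0.80 and 1.00 and AHR itself at 0.35 and 0.27, beside the rise of ALDH3A1 in the same comparisons. In erlotinib 3 of 7 were higher with N1, against 11.9% of all genes, and 3 of 7 with N3, against 7.93%. CYP1A1 with N1 in erlotinib was at -0.11 (adjusted p = 0.284 from limma). A part of AHR in the changes of ALDH3A1 was not tested.

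Of 20 genes of branched-chain amino acid breakdown, the pathway of ALDH6A1, 7 were higher with erlotinib in NTC cells and 5 were lower, against 24.6% and 25.4% of all genes, and the median of the list was 0.04. The largest changes were DLD (-0.46), a shared dehydrogenase subunit, MCCC1 (0.38), of leucine breakdown, and HIBCH (0.34), of valine breakdown. With N1 in DMSO 1 of the 20 was higher, against 7.75% of all genes, and 5 were lower, against 6.97%. Of 5 genes of lysine breakdown, the pathway of ALDH7A1, 1 was higher and 3 were lower with erlotinib in NTC cells. AASS, the first enzyme of that pathway, rose by 2.74 there, DHTKD1 and AADAT fell by 0.35 and 0.24, and with N3 against NTC in erlotinib AASS fell by 1.40. Of 9 genes that handle sphingolipids and fatty aldehydes, 1 was higher and 4 were lower. SGPL1, the sphingosine phosphate lyase whose product hexadecenal is a substrate of ALDH3A2, rose by 0.47 beside ALDH3A2, and FAR2 and SGPP1, which make fatty alcohols and recycle sphingosine phosphate, fell by 0.64 and 0.50.

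**Figure D4:**
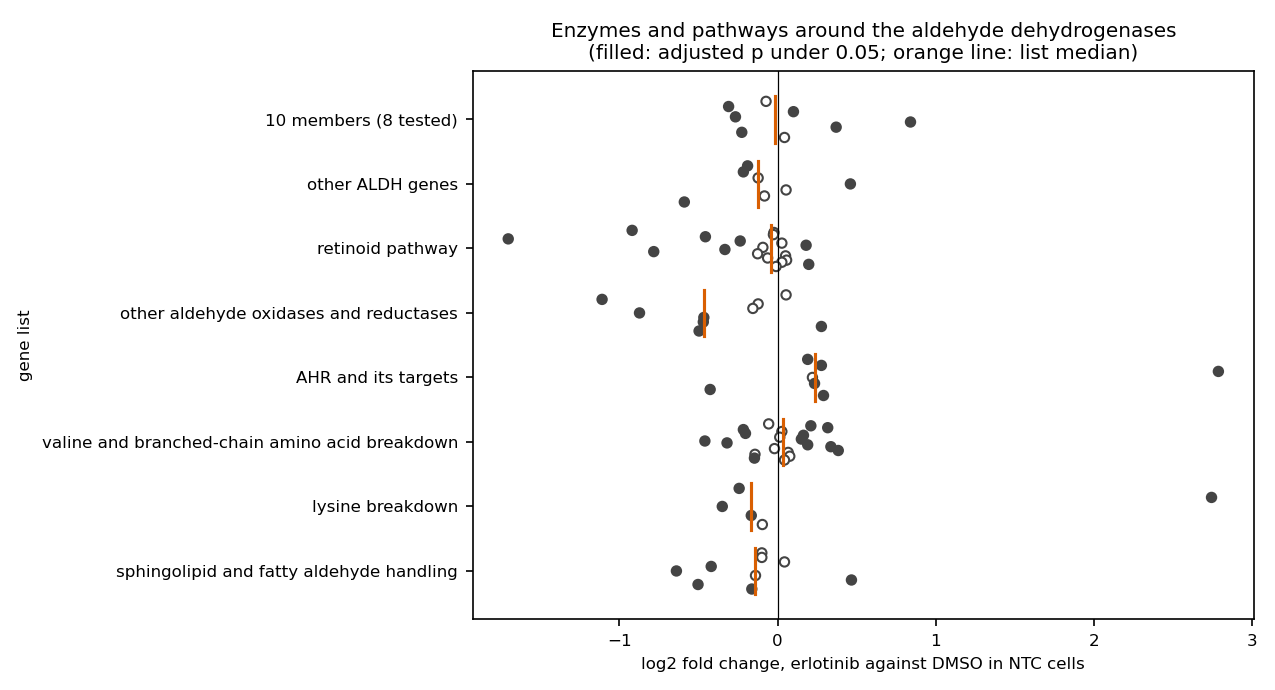
Log2 fold change of erlotinib against DMSO in NTC cells for the tested genes of each list, with 1 point a gene, filled for an adjusted p under 0.05, and an orange line at the list's median. CYP1A1 at 2.79 and AASS at 2.74 lie far to the right and DHRS9 at -1.70 far to the left, while the 8 members lie between -0.31 and 0.84.

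The genes whose levels over the 18 arrays were most like those of ALDH3A2, by Pearson correlation against 16335 other genes, were SH3BGRL (0.989), LOC100134868 (0.987), FRK (0.986), OSBPL9 (0.986) and CYP2B6 (0.983). For ALDH1B1 they were TPD52L2 (0.917), AAMP (0.905), ABHD11 (0.901), NAP1L5 (0.894) and PIN1P1 (0.892). These values are descriptions, since the 18 arrays fall into 6 groups that share a treatment or an siRNA.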

How the data were processed

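RNA of 18 samples was hybridized to GeneChip Human Transcriptome Array 2.0 arrays. The deposited log2 values are the authors' RMA output from Affymetrix Expression Console, which corrects the background, normalizes the arrays to each other and condenses the probes of a feature to 1 value. Its version is not given in the sources used here. Probe summaries were named from GEO's platform annotation: 23781 features name 1 gene, 1543 several and 45199 none, and no feature with several genes was used. Features above the 50th percentile of their array on at least 3 arrays were kept, with the feature of the highest mean for each gene. R 4.3.3 and limma 3.58.1 (lmFit, contrasts.fit, eBayes) fitted the 6 group means of all 18 arrays, with 12 residual degrees of freedom, for 9 comparisons, and p values were adjusted by Benjamini-Hochberg over 16336 genes. The scripts were tested on simulated data.

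Same-numbered arrays of NTC and N1 in DMSO deviated together (correlations 0.687, 0.243 and 0.493), a pairing read from the data and not from a label. The main fit left all arrays unpaired, with no replicate block. With the block, which was fitted on only the arrays of these 2 groups, every call of the main fit was kept. Without the block, the same arrays lost ALDH1A3, ALDH3A1, ALDH3B1 and ALDH7A1 (adjusted p from 0.0609 to 0.152 from limma). For every other pair of groups with shared numbers at least 1 of 3 correlations was below 0.1, and N3 in erlotinib shares no number with another group.

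All 10 members are named. Of each pathway list, up to 3 genes called with the largest change with erlotinib in NTC cells are named. Those named for other comparisons were chosen after their values were seen, as were the promoters printed. The members and lists were chosen with earlier results of these data known. Coordinates and promoters are those of RefSeq.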

Additional observations from a re-analysis of the deposited data

Results flagged for a closer look

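Groups of 3 arrays were not searched for outlying arrays. The results below stand out because the effect of erlotinib differed between cells with a Notch siRNA and cells with NTC, by the interaction term in limma. With N1 the effect was higher by 0.37 for ALDH1A3, 0.34 for ALDH1B1, 0.61 for ALDH2 and 0.21 for ALDH3B1, and the difference was -0.22 for ALDH3A2, on the log2 scale. With N3 the differences were -0.25 for ALDH1A3 and -0.26 for ALDH3A2. The terms of ALDH3B1 and ALDH3A2 with N1 were near the threshold. They were lost when only the compared arrays were fitted, without a replicate block (adjusted p = 0.0846 and 0.108) and with one (0.074 and 0.105). They were also lost with no noise filter (0.0643 and 0.0713) and on leaving out any of 8 and 9 of the 12 arrays. The term of ALDH3A2 with N3 was lost for 10 of 12 and with no noise filter (0.062). The terms with N1 and with N3 share the 6 NTC arrays.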

How the results depend on the processing

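Of the 42 calls over the 8 tested members and 9 comparisons, 27 were kept under every alternative run, 15 were lost under at least 1 and 0 were reversed. Of the 30 results not called, 5 were called under at least 1. When only the compared arrays were fitted, with fewer arrays to estimate the spread, members called fell from 6 to 2 for N1 in DMSO, from 6 to 3 for N1 in erlotinib and from 5 to 3 for the effect of erlotinib with N1 minus NTC. The share of all genes called was not counted in this or the other alternative fits. The counts here are therefore not read as particular to the members. With no noise filter the effect with N1 minus NTC gave 3 members and that with N3 minus NTC gave 1 in place of 2. A replicate block, which 6 comparisons allowed, was fitted on only the compared arrays. It gave 1 member in place of 2 for N3 in DMSO (ALDH3A2 had an adjusted p of 0.0935). For the effect with N1 minus NTC it gave 3, where ALDH3A2 (adjusted p = 0.105) and ALDH3B1 (0.074) were lost. Those arrays also lost these 2 without the block (0.108 and 0.0846). Among those groups the same-numbered arrays of NTC and N1 in DMSO deviated together, and the others share only numbers. The block also took ALDH6A1 and ALDH2 with erlotinib in NTC cells to adjusted p of 0.0557 and 0.272, and ALDH3A2 and ALDH6A1 with N1 in erlotinib to 0.0684 and 0.0641. Without the block the compared arrays gave 0.106 for ALDH2 with erlotinib in NTC cells, where ALDH6A1 was still called. With N1 in erlotinib they gave 0.052 for ALDH3A2 and 0.0506 for ALDH6A1. With arrays left out in turn, members called ran from 1 to 3 for N3 in erlotinib, where without NTC erlotinib array 3 only ALDH1A3 was called, from 3 to 5 for the effect with N1 minus NTC and from 1 to 3 for that with N3 minus NTC. Quantile normalization moved 17 of 60 group levels by over 1 SD, and the largest median log2 fold change of all genes was 0.08 before and 0.0511 after it. Except where given, the cause of a lost call was not tested. The 75th percentile as noise limit, all features in place of 1 a gene and a mean-variance trend with robust settings changed no total of members called by over 1.5 times. The stricter limit and the trend each added ALDH7A1 (adjusted p = 0.0383 and 0.0422) to the members lower with N3 in erlotinib, 2 in place of 1, and ALDH1A3 (0.0406 and 0.0279) to those lower with N3 in DMSO, 1 in place of 0. Both also called ALDH7A1 with erlotinib in N3 cells (0.0431 and 0.0451). The stricter limit added ALDH3A1 with N1 in erlotinib (0.044) and for the effect with N3 minus NTC (0.0352). Quantile normalization added ALDH7A1 with N3 in erlotinib (0.00786) and ALDH3A1 for the effect with N3 minus NTC (0.0365).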
